A study of Mus musculus with 15 samples.

Results

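The genes described are 10 genes of tumour macrophages, Adgre1, Csf1r, Cd68, Mrc1, Cd163, Mertk, Fcgr1, Ms4a7, Folr2 and Trem2. They were found as every non-control probe that carries one of these symbols in the array files, which gave 16 of 56605 probes and 10 of 37008 genes. All 10 genes were measured. Of the 16 probes, 14 were well above background on all 15 arrays, and the other 2 were not tested.

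Macrophages of a tumour arise from circulating monocytes and from macrophages of the surrounding tissue, and the receptor of colony stimulating factor 1, encoded by Csf1r, keeps them alive. Adgre1 (the F4/80 antigen) and Cd68 (a lysosomal glycoprotein) mark most mouse macrophages. Mrc1, Cd163 and Folr2 encode a mannose receptor, a haemoglobin scavenger receptor and a folate receptor that are often used to mark resident or alternatively activated macrophages. Mertk, Fcgr1 and Trem2 encode receptors for apoptotic cells, for antibody and for lipids, and Ms4a7 encodes a membrane protein of macrophages.

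Mammary tumours of MMTV-PyMT mice were compared at 20 weeks of age, 8 of mice on the B6 (C57BL/6) background and 7 of Wsh mice, with 1 array for each tumour. Both groups carry the MMTV-PyMT transgene, which drives polyoma middle T antigen in mammary epithelium. Wsh is the usual name of the Kit W-sh allele, a chromosomal inversion near Kit, and mice homozygous for it lack mast cells as adults, so the comparison bears on mast cells, but the inversion itself, or other DNA that is not shared by the strains, cannot be told apart from that lack. The labels do not say whether tumours shared a mouse, and p-values therefore measure the spread between these samples, which may in part be technical.

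Values are log2 processed signals minus the 75th percentile of their array, so a value of 0 is a signal at that percentile, and differences are Wsh minus B6. Probes differ in how brightly they bind, so each gene is compared with itself only. The share of spots well above background ran from 55.7% to 73.4% over the arrays. Precision is limited by how many arrays there were. Slide 1 held 4 arrays of each group, and slide 2 held 4 of B6 and 3 of Wsh. The epithelial genes Krt8, Krt18 and Epcam were well above background on 15 arrays. Kit was between 2.03 and 3.84 in B6 tumours and between -0.18 and 1.40 in Wsh tumours (limma adjusted p = 0.000208), without overlap. Skeletal muscle markers were above their average on 5 arrays, namely B6 4 and Wsh 1, 3, 4 and 5. Bulk tissue was measured, so fewer macrophages and less RNA per macrophage cannot be told apart in any value below.

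The probes are 60 bases long and differ in where on the transcript they lie, which is shown because 2 of them gave little signal. For Adgre1 the dim probe starts 72.6 kb from the other probe in the genome, and for Cd163 the distance is 10.048 kb (build mm9). The dim Adgre1 probe (chr17:57550221-57550280, plus strand) was well above background on 0 B6 and 2 Wsh arrays, and the dim Cd163 probe (chr6:124270436-124270495, plus strand) on 0 B6 and 1 Wsh array. These probes, and that of Folr2 (chr7:108988771-108988830, minus strand), hold at least 1 forward reading frame without a stop codon. All probes of the macrophage genes except that of Mrc1 hold such a frame, so this trait does not set the dim probes apart. No exon annotation of build mm9 was used.
Adgre1, dim probe: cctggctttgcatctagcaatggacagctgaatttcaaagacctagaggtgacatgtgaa
Cd163, dim probe: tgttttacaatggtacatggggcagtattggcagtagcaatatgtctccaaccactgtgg
Folr2, probe used: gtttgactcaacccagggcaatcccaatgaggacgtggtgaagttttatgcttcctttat

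Of the 16 probes, 4 hold a polyadenylation hexamer, AATAAA or ATTAAA, the signal near which a transcript is cut before its tail is added. A stretch of 30 bases of the probes used for Cd163, Ms4a7 and Trem2 is printed with the hexamer in capitals. The fourth is a Csf1r probe, which is not printed.
Cd163: aaaaatgttattAATAAAgaaacggaaatc
Ms4a7: tcagctttggtagatcctAATAAAcatctg
Trem2: tgcactttggacATTAAAcattctccacac

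The 250 bases before the start were given for 8 of the 10 genes (RefSeq, build GRCm38.p6), in 10 windows, since Folr2 and Ms4a7 have 2 each. They were searched on both strands for GAGGAA, the core of the site of PU.1, the factor that drives macrophage genes, and for TGANTCA, the site of AP-1 factors. GAGGAA was found in 4 of the 10 windows, against 23.3% of 32851 windows of the same length, and TGANTCA in 4 of the 10, against 6.75%. The 4 windows with GAGGAA are those of Mrc1 (chr2:14229164-14229413, plus strand), Fcgr1 (chr3:96293970-96294219, minus), Cd68 (chr11:69666171-69666420, minus) and Trem2 (chr17:48346151-48346400, plus). They are printed on the strand of the gene, with GAGGAA or its reverse complement TTCCTC in capitals, to show where the matches fall. Mrc1 holds 3 matches, which begin 180, 167 and 35 bases before the start, and that of Trem2 begins 40 bases before it. A match is only a description of the letters. Spi1, the gene of PU.1, was not measured.
Mrc1: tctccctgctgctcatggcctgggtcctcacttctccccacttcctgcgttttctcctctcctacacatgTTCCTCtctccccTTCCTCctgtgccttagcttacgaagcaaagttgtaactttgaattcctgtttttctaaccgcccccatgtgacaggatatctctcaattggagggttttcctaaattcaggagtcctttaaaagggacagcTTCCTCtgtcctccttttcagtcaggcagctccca
Fcgr1: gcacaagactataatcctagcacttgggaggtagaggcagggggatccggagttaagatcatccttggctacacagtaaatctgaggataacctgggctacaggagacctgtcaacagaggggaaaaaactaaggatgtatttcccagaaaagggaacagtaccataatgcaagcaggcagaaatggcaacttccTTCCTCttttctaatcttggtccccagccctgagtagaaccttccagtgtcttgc
Cd68: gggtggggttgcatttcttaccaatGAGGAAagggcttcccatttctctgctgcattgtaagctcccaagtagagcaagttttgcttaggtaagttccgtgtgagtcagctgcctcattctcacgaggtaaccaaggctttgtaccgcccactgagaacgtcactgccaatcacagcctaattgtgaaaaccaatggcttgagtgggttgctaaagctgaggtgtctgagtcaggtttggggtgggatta
Trem2: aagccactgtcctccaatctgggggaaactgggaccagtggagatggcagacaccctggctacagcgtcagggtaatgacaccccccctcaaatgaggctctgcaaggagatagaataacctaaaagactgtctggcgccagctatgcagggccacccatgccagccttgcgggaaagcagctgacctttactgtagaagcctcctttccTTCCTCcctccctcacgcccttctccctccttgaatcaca

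None of the 10 macrophage genes passed between Wsh and B6 tumours (0 of 10, against 0.336% of 22344 genes; limma, Benjamini-Hochberg adjusted p over all genes, threshold 0.05). With an unadjusted p under 0.05 there was 1, Ms4a7, against 10.4% of all genes in either direction and 4.67% higher in Wsh, as Ms4a7 was. The difference lay above 0 for 8 of 10, against 48.2% of all genes, and the exceptions were Cd163 and Folr2. The median difference of the 10 genes was 0.35, against -0.008 over all genes, and 10.2% of all genes had a difference at or above 0.35. The 95% interval held 0 for 9 of the 10. In no member were the groups free of overlap, against 0.358% of all genes. Marker lists of other cells also had medians above 0, at 0.68 for T and NK cells (6 of 8 genes above 0), 0.49 for B and plasma cells (9 of 9), 0.39 for neutrophils (6 of 8), 0.86 for adipocytes (9 of 11) and 3.23 for skeletal muscle (9 of 9). The medians were -0.05 for fibroblasts (1 of 7), -0.004 for endothelium (3 of 7) and 0.01 for epithelium (6 of 10). No gene of these lists passed, and the part of immune cells other than macrophages in the median of the 10 was not tested. The median of the 10 genes was 0.34 on slide 1 alone and 0.03 on slide 2 alone, and it moved to 0.07 with the adipocyte and skeletal muscle means as covariates and to 0.21 without B6 replicate 3.

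**Figure D1:**
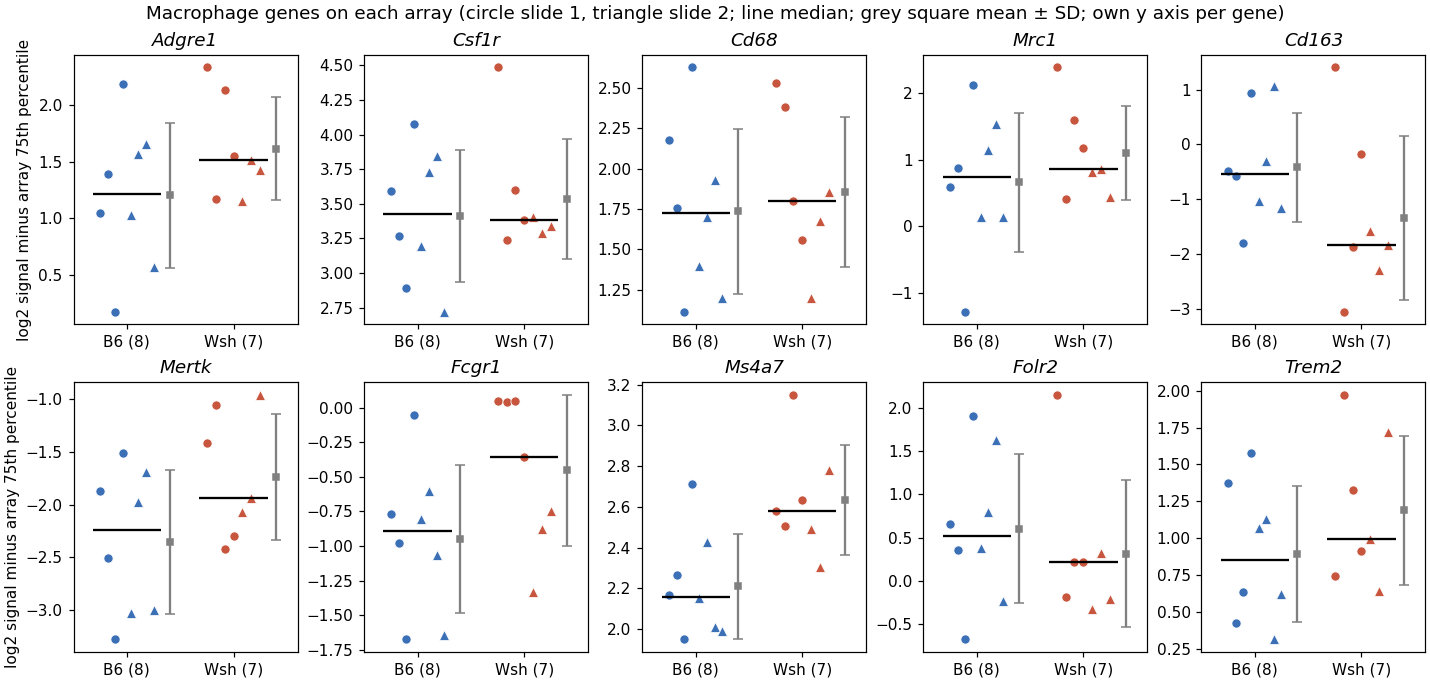
Log2 signal relative to the 75th percentile of the array (y axis, its own range for each gene) in 8 B6 and 7 Wsh tumours, each point an array, with the group median as a line and the mean ± SD as a grey square. The groups overlap for every gene, and B6 replicate 3 is the lowest B6 array for 8 of the 10 genes.

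The general macrophage genes Adgre1, Csf1r and Cd68 did not pass. Adgre1 ran from 0.17 to 2.19 in B6 (median 1.22) and from 1.15 to 2.33 in Wsh (median 1.52). The lowest Wsh array lay above the 4 lowest B6 arrays, yet both groups reached a similar top. Its difference was 0.41 (SE 0.27, limma adjusted p = 0.657), with group means of 1.20 ± 0.64 (SD, n = 8) and 1.61 ± 0.45 (SD, n = 7). Csf1r, the receptor through which macrophages receive their survival signal, ran from 2.72 to 4.08 in B6 (median 3.43) and from 3.24 to 4.49 in Wsh (median 3.38). Of the 7 Wsh arrays 6 lay within the B6 range, and Wsh 1 lay above it. The difference was 0.12 (SE 0.22, 95% interval -0.36 to 0.60, limma adjusted p = 0.912), and its sign turned without Wsh replicate 1 (-0.04). The other Csf1r probe, which starts 12.1 kb away, gave -0.04 and correlated with the first at 0.60 over the arrays with group means removed.

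Cd68 ran from 1.11 to 2.63 in B6 (median 1.73) and from 1.20 to 2.53 in Wsh (median 1.80), so that the Wsh arrays lay wholly within the B6 range. Its difference was 0.12 (SE 0.24, 95% interval -0.39 to 0.63, limma adjusted p = 0.919). Its other probes gave 0.16 and 0.47. They correlated with the first at 0.98 and 0.72.

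The endocytic receptor genes Mrc1, Cd163 and Folr2 varied most between tumours and did not share a direction. Mrc1 ran from -1.29 to 2.12 in B6 (median 0.73) and from 0.41 to 2.39 in Wsh (median 0.86). B6 replicate 3 stood well below every other array, and B6 4 and Wsh 1 were the highest of their groups. The difference was 0.44 (SE 0.43, limma adjusted p = 0.796), and it was 0.16 without B6 replicate 3.

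Cd163 ran from -1.81 to 1.07 in B6 (median -0.54) and from -3.06 to 1.41 in Wsh (median -1.84). In Wsh 4 of the 7 arrays lay below every B6 array, while Wsh 1 lay above them all. The B6 mean was -0.42 ± 0.996 (SD, n = 8), and the Wsh mean was -1.34 ± 1.49 (SD, n = 7). The difference of -0.92 (SE 0.60, 95% interval -2.20 to 0.35) did not pass (limma adjusted p = 0.648), and it was -1.38 without Wsh replicate 1. Folr2 ran from -0.68 to 1.91 in B6 (median 0.52) and from -0.32 to 2.15 in Wsh (median 0.22). Wsh 1 was the highest array of all, and the other 6 Wsh arrays reached at most 0.32, below the B6 median. The difference was -0.29 (SE 0.41, limma adjusted p = 0.872), -0.60 without Wsh replicate 1 and 0.04 on slide 1 alone.

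Among the receptors for dead cells, antibody and lipids, Mertk, Fcgr1 and Trem2 had differences above 0 in every setting tried, as did Adgre1 and Ms4a7. Mertk, a kinase that takes part in clearing apoptotic cells, ran from -3.28 to -1.51 in B6 (median -2.24) and from -2.42 to -0.95 in Wsh (median -1.94). The 3 highest Wsh arrays lay above every B6 array, and the 4 lowest B6 arrays below every Wsh array. Its difference was 0.62 (SE 0.31, 95% interval -0.04 to 1.29, limma adjusted p = 0.519). Fcgr1, the high affinity IgG receptor gene, ran from -1.68 to -0.05 in B6 (median -0.89) and from -1.33 to 0.05 in Wsh (median -0.36). Of the Wsh arrays, 6 of 7 lay above the B6 median. The difference was 0.50 (SE 0.26, limma adjusted p = 0.546), 0.82 on slide 1 alone and 0.04 on slide 2 alone.

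Trem2, a lipid receptor gene of lipid-associated macrophages, ran from 0.31 to 1.58 in B6 (median 0.85) and from 0.64 to 1.97 in Wsh (median 0.998). Wsh 2 led the Wsh arrays and Wsh 1 was second lowest of its group, while B6 4 led the B6 arrays, as it did for every other member but Cd163. The difference was 0.29 (SE 0.24, limma adjusted p = 0.732), and it was 0.16 without Wsh replicate 2.

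Ms4a7 had the narrowest spread of the members and the lowest p. It ran from 1.95 to 2.71 in B6 (median 2.16) and from 2.30 to 3.15 in Wsh (median 2.58). All 7 Wsh arrays lay above the B6 median, yet B6 4 lay above 5 of them. The difference was 0.43 (SE 0.14, 95% interval 0.14 to 0.72), or 1.34-fold, with a limma adjusted p = 0.266. Its other probe, 0.101 kb away, gave 0.40 and correlated with it at 0.92. Over the alternative settings the difference ran from 0.28 to 0.50 and the adjusted p from 0.137 to 0.738. Mrc1, Mertk, Fcgr1, Folr2 and Trem2 have 1 probe each, and Adgre1 and Cd163 1 each that gave more than little signal, so in these genes a variant base in the probe's target and a difference of level cannot be told apart.

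**Figure D2:**
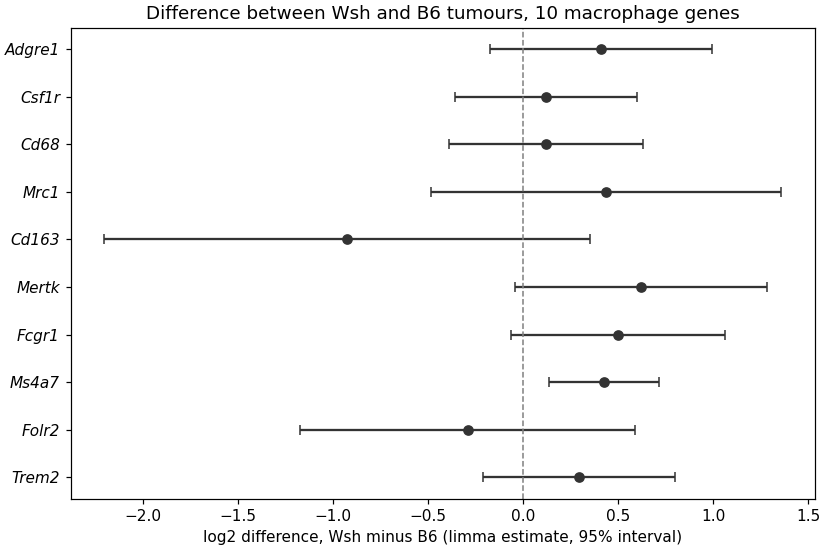
Log2 difference between Wsh and B6 (x axis; points are limma estimates, bars 95% intervals) for the 10 genes. The estimates run from -0.92 (Cd163) to 0.62 (Mertk), and the bar of Ms4a7 is the one that leaves out 0.

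The 10 genes varied more between tumours of a group than most genes did, except Ms4a7. Their median residual SD, the spread within groups, was 0.55, against 0.30 over all genes. It ran from 0.26 for Ms4a7 to 1.25 for Cd163. Wsh 1 was the highest Wsh array for 7 of the 10 genes, against 17.4% of all genes, and B6 3 was the lowest B6 array for 8 of 10, against 17.5%. B6 4 was the highest B6 array for 9 of 10, the exception being Cd163, highest in B6 7. The share of all genes highest in B6 4 was not counted, so the count of 9 has no background beside it. The mean of the 10 genes, each centred on its average over the arrays, was 0.95 on Wsh 1 and 0.88 on B6 4, and -0.98 on B6 3 and -0.66 on B6 8.

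Most of the genes rose and fell together over the tumours. With group means removed, 42 of 45 pairs had a Pearson correlation above 0 over the 15 arrays, 38 of them on both slides, with a median of 0.58. Of 16602 genes with a symbol, between 38.1% (for Folr2) and 46.9% (for Trem2) correlated above 0 with a member. The 1% of genes nearest to a member held from 0 (Cd68 and Trem2) to 3 (Adgre1 and Csf1r) of the other members. Both Pearson and Spearman correlations passed for 17 pairs (permutation of arrays within groups, two-sided, 100000 draws, Benjamini-Hochberg adjusted over the 45 pairs). Adgre1 and Mrc1 gave r = 0.95 and rho = 0.93 (permutation adjusted p = 0.000225 and 0.00045), and r = 0.92 without the 2 arrays farthest from the Adgre1 median. Csf1r and Folr2 gave r = 0.94 and rho = 0.82 (permutation adjusted p = 0.00045 and 0.00489), and r = 0.86 without the 2 farthest arrays. Mrc1 and Folr2 gave r = 0.91, and Cd163 and Folr2 r = 0.87. These 5 genes, Adgre1, Csf1r, Mrc1, Cd163 and Folr2, had correlations of at least 0.74 with each other.

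Cd68 stood nearest to Fcgr1 (r = 0.82, rho = 0.75, permutation adjusted p = 0.00225 and 0.011) and Mertk (r = 0.80, rho = 0.80, permutation adjusted p = 0.00307 and 0.0056). Without the 2 arrays farthest from its median those values were 0.73 and 0.79. Some looser pairs rested on the end arrays, such as Adgre1 with Cd68, at r = 0.70 over all arrays and 0.49 without 2. By both correlations Ms4a7 passed with Fcgr1 alone (r = 0.68). Trem2 passed with no other member by both correlations, and its median correlation with the other 9 was 0.06. Within B6 alone its correlations with them ran from 0.18 (Cd163) to 0.73 (Fcgr1). Within Wsh alone they ran from -0.59 (Cd163) to 0.58 (Mertk). Mertk followed Mrc1 in B6 (r = 0.89 over 8 arrays) but not in Wsh (r = -0.32 over 7 arrays). Over all its pairs with other members, Mertk ran from 0.40 (Trem2) to 0.94 (Csf1r) in B6. In Wsh it ran from -0.32 (Mrc1) to 0.63 (Cd68). These differences between the groups were not tested.

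**Figure D3:**
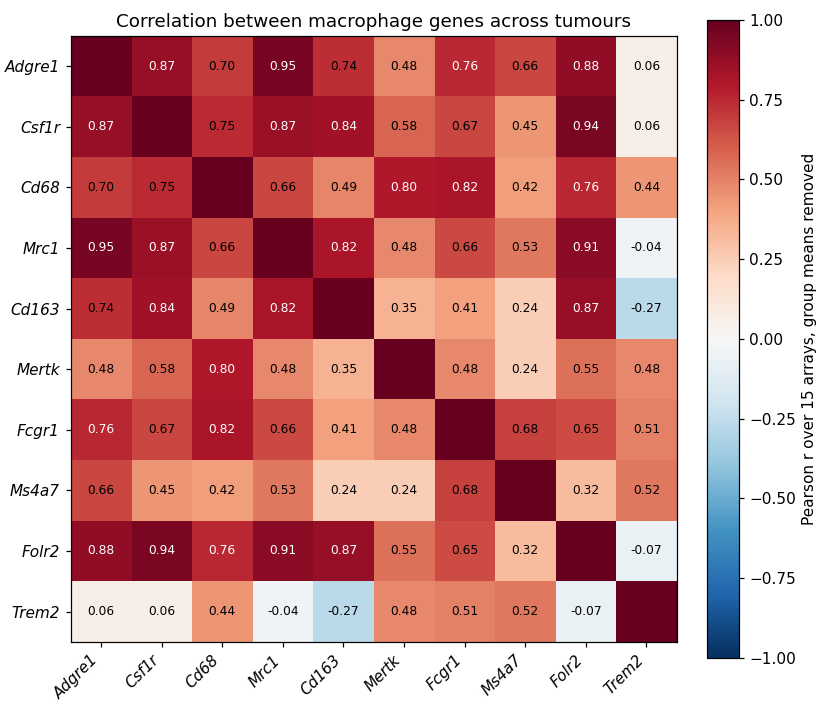
Pearson correlation between each pair of the 10 genes over 15 arrays with group means removed, in colour and as a number. Adgre1, Csf1r, Mrc1, Cd163 and Folr2 are dark red with each other, at 0.74 to 0.95, while the row of Trem2 is pale, from -0.27 to 0.52.

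Genes outside the list that most resembled the mean of the 10 were Serping1, Pld4, C1qb, Fgl2, Ms4a4d and Hic1, with correlations of 0.95 to 0.96 over the 15 arrays (group means removed). C1qb encodes a chain of complement C1q, a product of macrophages, and Serping1 an inhibitor of the first complement component. Nearest to Adgre1 were Clec4b1 and Evi2a, to Mrc1 Ms4a4d and Clec4b1, and to Cd68 the integrin gene Itgb2 and the hexokinase gene Hk3. Nearest to Fcgr1 were Lrrc25 and C1qc, to Mertk Slc37a2 and Chil3, to Ms4a7 Cd300c2 and 4732416N19Rik, and to Trem2 the lysosomal protease gene Lgmn (r = 0.88) and Uap1l1 (r = 0.85). Csf1r lay nearest to Ang4 and Ang6, Cd163 to Mrgprf and Gstm3, and Folr2 to Akr1c14 and Gstm6. Ang4, Ang6, Gstm3 and Gstm6 belong to families of near-identical genes, so their probes may share signal.

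Other genes of the same pathways were taken from lists. In the list of ligands and signalling of the CSF1 receptor, 13 of 14 genes were measured, 13 had a difference above 0 and 0 passed. The ligand genes Csf1 (0.02, SE 0.12) and Il34 (0.08, SE 0.23) had differences near 0, with a list median of 0.23. The phosphatase gene Inpp5d had 0.63 (SE 0.22) and the kinase subunit gene Pik3cd 0.74 (SE 0.29), with limma adjusted p of 0.308 and 0.389. Of the transcription factor genes of the macrophage lineage, 9 of 11 lay above 0 and none passed, with Maf at 0.49, Irf8 at 0.52 and Zeb2 at 0.50.

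Of the genes for receptors and ligands of phagocytosis, 15 of 19 lay above 0 and none passed. Havcr2, a receptor for phosphatidylserine, had 0.38 (SE 0.11, limma adjusted p = 0.218), the scavenger receptor gene Msr1 0.73 (SE 0.29) and Stab1 0.45 (SE 0.19). Of the Fc gamma receptor genes 4 of 5 lay above 0, with Fcgr4 at 0.39, Fcgr3 at 0.42 and Fcgr2b at 0.35. Of the other MS4A genes 9 of 10 lay above 0, and the first by moderated t were Ms4a4a at 0.74, Ms4a6d at 0.54 and Ms4a6c at 0.34. Ms4a4b, named after its value was seen, had a larger difference (0.90, SE 0.69). The 3 C1q genes C1qa, C1qb and C1qc had 0.26, 0.14 and 0.30. No gene of these 3 lists passed.

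Resident macrophage genes, the company in which Cd163 and Folr2 are usually found, were split, with 9 of 17 above 0, a median of 0.02 and none past the threshold. Cbr2 had -0.54 (SE 0.29), Cx3cr1 0.29 (SE 0.14) and Cd209a 0.54 (SE 0.51). Lipid-associated macrophage genes, the company of Trem2, had 11 of 15 above 0 and none past the threshold, with the elastase gene Mmp12 at 0.84 (SE 0.30), Spp1 at 0.66 (SE 0.34) and Gpnmb at 0.72 (SE 0.38). Of the alternative activation genes 5 of 9 lay above 0, with Il4ra at 0.25, Socs3 at 0.28 and Vegfa at -0.35. Of the inflammatory activation genes 10 of 10 lay above 0, with the cytokine gene Il1b at 1.28 (SE 0.42, limma adjusted p = 0.274), Cd80 at 0.30 and Cd86 at 0.54. None of these passed.

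Genes that recruit monocytes, the precursors of macrophages, lay above 0 in 8 of 10 and none passed. Ccl7 had 1.30 (SE 0.40, limma adjusted p = 0.241), Ccl3 0.82 (SE 0.26) and Ccl4 0.65 (SE 0.28). Of the monocyte genes 7 of 12 lay above 0, and Cd14, a coreceptor for bacterial lipopolysaccharide, had 0.53 (SE 0.14) and the lowest adjusted p of these lists (limma adjusted p = 0.164). Ccr2, the receptor of the recruiting chemokines, had 0.54 (SE 0.34) and Treml4 0.48 (SE 0.32).

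Markers of other cells were set beside the 10 genes on each array. Each member was correlated with 9 marker genes (90 pairs, same permutation test, adjusted over the 90), and 17 pairs passed by both correlations. The share of all genes that pass with a given marker was not counted, so the counts for each marker have no background beside them. Adipoq, the adipocyte hormone gene, passed with 6 of the 10 members. Mrc1 followed it at r = 0.93 and rho = 0.88 (permutation adjusted p = 0.0012 and 0.00285), Adgre1 at r = 0.89, Folr2 at 0.87, Csf1r at 0.76, Cd163 at 0.73 and Cd68 at 0.66. The value for Mrc1 was 0.87 without the 2 arrays farthest from its median, and 0.96 and 0.89 on slides 1 and 2. Fcgr1 (r = 0.61, permutation adjusted p = 0.0622 and 0.0852), Mertk (0.55), Ms4a7 (0.34) and Trem2 (-0.11) did not pass with Adipoq.

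The 11 adipocyte markers were all measured, 9 with a difference above 0 and none past the threshold. Their mean was between -3.71 and 1.96 in the B6 tumours, with B6 3 lowest, and between -0.93 and 1.78 in the Wsh tumours. That array, lowest for 8 of the members, had Adipoq at -3.55, while the others ran from 0.36 to 5.75. With the adipocyte and skeletal muscle means as covariates, Mrc1 had a difference of -0.10 (SE 0.19) and Cd163 of -1.70 (SE 0.44, limma adjusted p = 0.106), and none of the 10 passed. The part of fat in the differences of the other members was not tested beyond this fit.

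**Figure D4:**
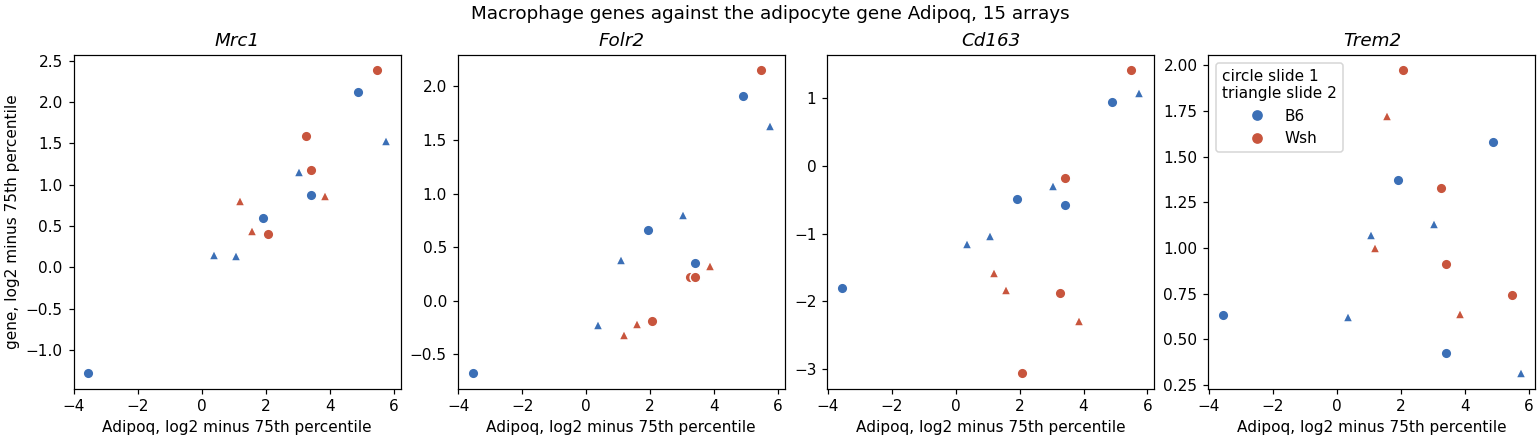
Log2 signal relative to the 75th percentile of the array for Mrc1, Folr2, Cd163 and Trem2 (y axes) against Adipoq (x axis), with 8 B6 arrays in blue and 7 Wsh arrays in red, circles for slide 1 and triangles for slide 2. Mrc1 follows Adipoq at r = 0.93 with group means removed, Trem2 does not (r = -0.11), and several Wsh arrays lie below the B6 arrays of like Adipoq for Cd163 and Folr2.

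Pecam1, an endothelial gene, passed with 4 members, most closely with Folr2 (r = 0.87). Flt3, of dendritic cells, passed with 3, and Col1a1, of fibroblasts, with Mrc1 and Cd163 (r = 0.75 each). Epcam, of epithelium, passed with Mertk alone, in the opposite direction (r = -0.70, rho = -0.80, permutation adjusted p = 0.0208 and 0.0094). Mcpt4, of mast cells, was at -6.94 or lower on every Wsh array, so its correlations over the 15 arrays are not read, and the pair it forms with Mertk among the 17 carries no weight. The 8 B6 arrays alone are given as a description with no test. Over them Mrc1 followed Mcpt4 at r = 0.97, Adgre1 at 0.96, Cd163 at 0.94, Folr2 at 0.93 and Mertk at 0.87. Csf1r followed it at 0.86, Cd68 at 0.83, Fcgr1 at 0.74, Ms4a7 at 0.62 and Trem2 at 0.16. Adipoq gave similar values there, at 0.96 for Mrc1, 0.93 for Adgre1 and Cd163 and 0.91 for Folr2. Its other values ran from 0.12 (Trem2) to 0.85 (Mertk). B6 3 was the lowest B6 array for Mcpt4 (-4.48) and Adipoq (-3.55). A link particular to mast cells was not tested. Cd3e, Cd79a and Csf3r, of T cells, B cells and neutrophils, passed with none. Cd79a was well above background on only 7 of the 15 arrays. Csf3r varied little, from 4.93 to 5.72, and was highest on Wsh 5, where the mean of the neutrophil markers was -1.33. So these results for Cd79a and Csf3r say little about B cells and neutrophils. Dendritic cell markers, which overlap with those of macrophages, had 9 of 10 measured genes above 0 and none past the threshold, and their mean was between -1.20 and 0.62 in the B6 tumours and between -0.70 and 1.32 in the Wsh tumours.

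Cd163 and Folr2 were set against the other macrophage genes within each array, a comparison picked after their values were seen and so given with no test. The log2 signal of Cd163 minus that of Mrc1 was between -1.45 and -0.46 in B6 tumours and between -3.47 and -0.97 in Wsh tumours, with 5 of 7 Wsh arrays below every B6 array. The signal of Folr2 minus that of Mrc1 was between -0.52 and 0.61 in B6 tumours and between -1.37 and -0.23 in Wsh tumours, with 6 of 7 Wsh arrays below every B6 array. These are differences of 2 probes on 1 array, so only their change between arrays has a meaning. Against Csf1r in place of Mrc1, 5 of 7 Wsh arrays lay below every B6 array for Cd163 and 1 of 7 for Folr2. In a fit with the mean of Adgre1, Csf1r and Cd68 as a covariate, also chosen after seeing the data, Folr2 had a difference of -0.67 (SE 0.16, limma adjusted p = 0.113) and Cd163 of -1.36 (SE 0.43, limma adjusted p = 0.209). There Mrc1 had 0.06 (SE 0.20) and Ms4a7 0.36 (SE 0.12), and none of the 7 genes fitted passed.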

How the data were processed

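Total RNA of 15 tumours was amplified and put on 1-colour Agilent arrays with a Cy3 label, per the labels' protocols. Per the file headers, Agilent Feature Extraction 10.7.3.1 gave the processed intensity, background-subtracted and detrended but not normalized between arrays. The authors' deposited log2 table served as an alternative. Its centring and its normalization stay unknown, and its column medians ran from 8.85 to 8.86. The log2 of the processed intensity minus the 75th percentile of the array was used. Probes that 7 or more of 15 arrays showed well above background were kept, with the brightest probe for each gene. A gene without a kept probe counts as not measured. Wsh and B6 were compared over 22344 genes with limma 3.58.1 in R 4.3.3 (two-sided, Benjamini-Hochberg, threshold 0.05). The members, lists and tests were chosen with earlier results of these data known. Named were all members and probes, up to 3 genes of a list by moderated t, the 6 genes most like the member mean, 2 per member, and the marker genes; 1 gene that this rule names is not reported here. Ckm had no kept probe, so 90 pairs were tested, fewer than planned. Replicate numbers were not used to pair samples in the main fit. The correlation of deviations of same-numbered arrays ran from -0.24 to 0.21. It was not set against arrays of unlike number, so it cannot show whether samples were paired. Steps were tested on simulated data.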

Additional observations from a re-analysis of the deposited data

Results flagged for a closer look

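Wsh replicate 1 stood apart from the other Wsh arrays for 2 members. Csf1r was 4.49 there, against 3.60 on the next highest Wsh array. Folr2 was 2.15 there, against 0.32 on the next. These are values on the log2 scale relative to the 75th percentile, and each gap was wide for a group of 7 arrays by Dixon's criterion, which chance meets in about 1 group in 20; 20 groups were looked at. The same array had skeletal muscle markers at a mean of 2.91 and adipocyte markers at a mean of 1.78 above the average of all arrays, and the part of these in the gaps was not tested.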

How the results depend on the processing

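None of the 10 genes passed under any of the 31 other settings. Their median difference ran from 0.03 (slide 2 alone) to 0.45 (without B6 replicate 4) and stayed above 0, and with 1 array left out it ran from 0.21 to 0.45. Scaling by the array median moved the median of all genes to -0.11 and that of the members to 0.25. The sign turned for Folr2 on slide 1 alone (0.040), for Csf1r on slide 2 alone (-0.028), with adipocyte and skeletal muscle covariates (-0.10), without Wsh replicate 1 (-0.038, with its other values with 1 array left out up to 0.22) and without the 5 arrays with skeletal muscle (-0.030), for Mrc1 on slide 2 alone (-0.039) and with the covariates (-0.10), and for Cd68 with array weights (-0.036). The cause was not tested. Over all genes 75 passed, against 25 with no filter, 114 with every probe a row, 4 and 1 on slides 1 and 2 alone, where fewer arrays were fitted, 187 with array weights, 121 with the covariates, 25 without the 5 arrays with skeletal muscle, and 25 (without B6 replicate 5) to 76 with 1 array left out. With the replicate block 15 genes passed, none a member, and the member median was 0.29. Of the 45 pairs of members, 38 to 44 were above 0 under 5 other settings. Leaving out the muscle arrays, and the macrophage covariate, were choices made after seeing the data. The widest 95% interval of a member reached 1.28 to either side, with no adjustment for the number of genes. The threshold adjusted over all genes is stricter, so differences of that size and larger could be missed. The brightness of 2 dim probes was not tested.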
